A study of Mus musculus with 17 samples.

Results

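The genes of the cytosolic ribosomal proteins were followed through 17 mouse kidney cortex libraries. Members were chosen by name alone: protein-coding genes whose symbol starts with Rpl or Rps and a number, leaving out the Rps6k kinases. The rule found 89 genes, 54 of the large and 35 of the small ribosomal subunit, among 21637 protein-coding genes and 48795 genes in all. It also takes in Rps19bp1, a regulator of SIRT1 that is not part of the ribosome, and symbols with "-ps", "rt" or "rg" that were annotated as protein-coding copies, and it leaves out ribosomal proteins with other names such as Rplp0 and Rpsa.

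The libraries were made from mRNA of kidney cortex in WT, GCERAd, TRACK and GCERAdT. WT (n = 5) were labelled Wild Type. GCERAd (n = 5) were labelled ATF4 KO; these mice carry a CreER transgene under part of the Ggt1 promoter and floxed Atf4 alleles, and were given tamoxifen at 6 weeks of age to delete Atf4 in proximal tubules, so the other cell types of the cortex keep the gene. Per the study's methods mice were fasted for 16 hours before the kidneys were taken, about a month after the first injection, without a breakdown by group. TRACK (n = 3) is a transgenic mouse model of kidney cancer, and GCERAdT (n = 4) were labelled TRACK-ATF4 KO. The age, the treatment and the crossing of the TRACK and GCERAdT mice, and whether TRACK or WT mice received tamoxifen or carried CreER, were not given in the sources used here. The labels called every library a separate mouse, while the extraction protocol speaks of 3 to 4 mice per cohort. The study's supplement lists some library names again with an added letter, without matching them to the labels used here.

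Each ribosome is built from a small subunit, which reads the mRNA, and a large subunit, which joins the amino acids, and each ribosomal protein is present in 1 copy in most ribosomes. Their mRNAs are among the most abundant of any cell, and most of them begin with a C followed by a run of pyrimidines, the terminal oligopyrimidine (TOP) tract, through which growth signalling by mTOR sets their translation together. ATF4, the transcription factor deleted here, is known for inducing genes of amino acid supply when translation initiation is slowed.

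The starts of a few members are shown because these members changed most or changed least in the comparisons that follow, so that their start sites can be set beside their values. The sequences are from RefSeq on GRCm38.p6 and run from 60 bases before to 20 bases from the annotated start, 5′ to 3′. Capitals mark a C within 5 bases of the annotated start that is followed by at least 4 pyrimidines, on the strand of the gene. Rpl12 (chr2:32961652-32961731, plus strand), Rps24 (chr14:24490618-24490697, plus) and Rpl38 (chr11:114668520-114668599, plus) held such a tract, as did Rps27 (chr3:90213629-90213708, minus). None was found within 5 bases of the annotated start of Rpl5 (chr5:107900468-107900547, plus), Rps12 (chr10:23787190-23787269, minus), Rpl7l1 (chr17:46782637-46782716, minus) or Rpl36al (chr12:69184048-69184127, minus).
Rpl12: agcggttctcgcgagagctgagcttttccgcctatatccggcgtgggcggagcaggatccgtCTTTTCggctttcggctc
Rps24: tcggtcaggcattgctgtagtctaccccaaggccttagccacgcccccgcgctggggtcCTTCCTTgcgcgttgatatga
Rpl38: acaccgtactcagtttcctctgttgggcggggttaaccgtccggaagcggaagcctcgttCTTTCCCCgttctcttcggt
Rps27: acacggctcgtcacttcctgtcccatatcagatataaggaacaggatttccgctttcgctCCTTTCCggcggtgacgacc
Rpl5: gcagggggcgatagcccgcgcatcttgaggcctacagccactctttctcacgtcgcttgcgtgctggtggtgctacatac
Rps12: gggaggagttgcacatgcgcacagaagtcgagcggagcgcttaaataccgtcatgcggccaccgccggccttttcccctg
Rpl7l1: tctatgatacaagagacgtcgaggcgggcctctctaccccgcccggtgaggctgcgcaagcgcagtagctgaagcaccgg
Rpl36al: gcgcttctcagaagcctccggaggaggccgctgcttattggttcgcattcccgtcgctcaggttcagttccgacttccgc

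Of the 89 members, 64 had a start in the RefSeq table, and 30 of these (46.9%) held the tract, against 21.2% of all 27025 genes of the table. The share was 42.1% among 38 large subunit members and 53.8% among 26 small subunit members. A missing tract says only that these letters are not at the annotated start, which can lie some bases from the start used in the cell.

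Totals on genes were between 53688512 and 71364561 counts per library. Atf4, the targeted gene, had a normalized read count between 74.8 and 101 CPM in WT (CPM is scaled to the total of each library with TMM factors) and between 55.8 and 75.1 in GCERAd. In TRACK it had between 77.6 and 93.4, and in GCERAdT between 80.6 and 104, so the counts on this gene did not show the deletion in the libraries labelled GCERAdT; the table does not separate its exons, and groups follow the labels. Every WT library held Xist (147 to 422 CPM) and no Ddx3y, and every library of the other groups held Ddx3y (at least 49.7 CPM) and at most 6.06 CPM of Xist. Sex and genotype therefore cannot be told apart in any contrast with WT, whereas both groups were of the same sex in GCERAdT against GCERAd and in GCERAdT against TRACK. Markers of the proximal tubule (8 genes: Lrp2, Cubn, Slc34a1, Slc5a2, Slc5a12, Aqp1, Ggt1 and Kap) were summed. The sums were at 12640 to 17000 CPM in WT, 26700 to 44870 in GCERAd, 20630 to 29700 in TRACK and 23860 to 36540 in GCERAdT. They were not split by gene, so 1 abundant gene may carry them. Their difference from WT cannot be told apart from sex. The part of these markers in the results was not tested. Fewer cells of a type and less RNA per cell cannot be told apart in these bulk samples.

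The libraries were of 2 kinds that cross the groups, and the members depended strongly on the kind. The share of counts on processed pseudogenes, leaving out the copies of ribosomal protein genes, was 0.0291 to 0.0342% in 8 libraries (kind A: WT 1, 3, 4 and 5, GCERAd 1 and 2, GCERAdT 1 and 2) and 0.053 to 0.0721% in 9 (kind B: WT 2, GCERAd 3, 4 and 5, all TRACK, GCERAdT 3 and 4). The mitochondrial tRNA gene mt-Tl1, which the split did not use, was at 0 to 0.157 CPM in kind A and at 87.5 to 190 CPM in kind B. The labels do not say how the libraries of each kind were made. The study's supplement lists its libraries in 2 sets that differ in base yield at similar cluster counts. Their names are not matched to the labels, and whether these sets are the 2 kinds was not tested. With group and kind in a fit of all 17 libraries, 39 of 82 members tested were lower in kind B (background: 11.1% of all 12208 genes tested) and 11 were higher (10.6%), with a median log2 difference of -0.32 in the large and -0.09 in the small subunit. Rps29 (-1.66 ± 0.07, SE), Rpl5 (-1.48 ± 0.07), Rps28 (-1.24 ± 0.07) and Rpl31 (-1.24 ± 0.07) were far lower in kind B, while Rpl22l1 (0.74 ± 0.06), Rps21 (0.53 ± 0.07) and Rps27l (0.38 ± 0.08) were higher.

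For most members the difference between kinds was close in the 3 pairs of libraries compared. For Rps29 the log2 ratio was -1.64 for WT 2 over WT 1, -1.78 for GCERAd 3 over GCERAd 2 and -1.60 for GCERAdT 3 over GCERAdT 2. For Rpl31 the same ratios were -1.17, -1.16 and -1.17. For Rpl22l1 they were 0.70, 0.58 and 0.75. Across the 82 members the ratios of these pairs had a Pearson r of 0.915, 0.927 and 0.988, given as a description because the members share their libraries. Exceptions were Rps19bp1 (-0.37, 0.26 and 0.37), Rps27rt (0.01, 0.48 and 0.76) and Rpl9-ps6 (-1.91, -0.16 and -0.45). These pairs were chosen because each may be 1 mouse sequenced as both kinds: over 124 immunoglobulin variable genes, whose use differs between animals, r was 0.876 for GCERAdT 2 and 3 and 0.74 for GCERAd 2 and 3, against at most 0.366 for other pairs inside GCERAd, TRACK and GCERAdT. The r of 0.699 for WT 1 and 2 lay inside the range of the other WT pairs (0.485 to 0.745). Because of the kinds, each comparison is given from the fit with group alone and from the fit with kind as a covariate. Both fits count the libraries of a pair as separate samples, so their p-values may be too small if a pair is 1 mouse. The plot of pair ratios shows how closely the members repeat their differences.

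**Figure D1:**
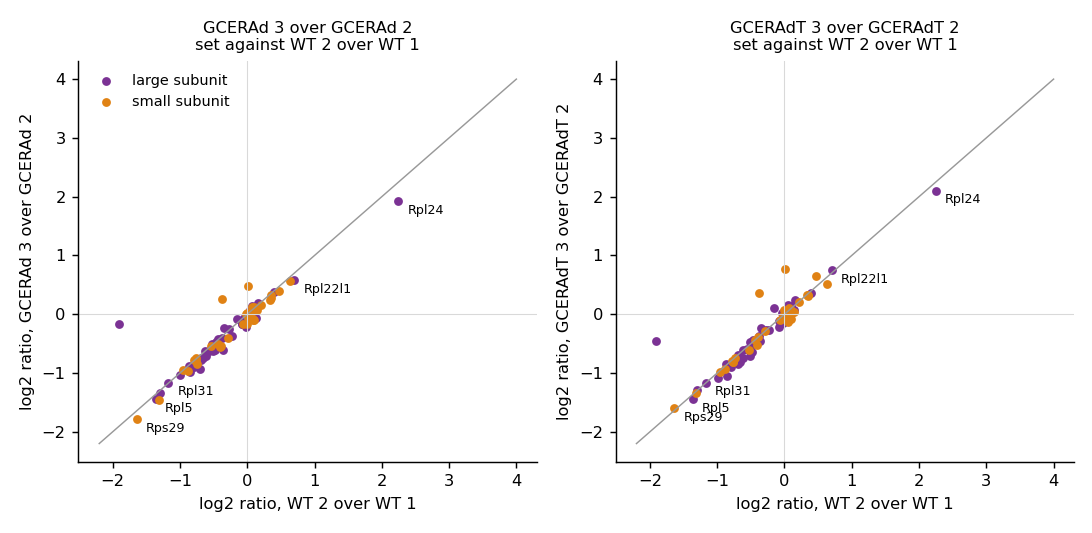
Log2 ratio of normalized CPM of a kind B over a kind A library for each of 82 members, for GCERAd 3 over 2 (left) and GCERAdT 3 over 2 (right), set against WT 2 over 1; the grey line marks equal ratios, and colours give the subunit. Most members lie near the line, from Rps29 at the lower left to Rpl24 at the upper right; the large subunit point left of the line at -1.91 is Rpl9-ps6, of few counts.

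Taken as a share of all counts, the members were lowest in GCERAd within both kinds. In WT the 89 members together took 1.87, 1.58, 1.84, 1.75 and 1.86% of counts in libraries 1 to 5. In GCERAd they took 1.45, 1.45, 1.18, 1.11 and 1.17%. In TRACK they took 1.46, 1.39 and 1.63%. In GCERAdT they took 1.91, 2.10, 1.71 and 1.58%. No GCERAd library reached the lowest WT or GCERAdT library, and the highest GCERAd value lay between those of TRACK 1 and 2. Among kind A libraries the mean was 1.83% in WT, 1.45% in GCERAd and 2.00% in GCERAdT, and among kind B libraries it was 1.58% in the only WT library, 1.15% in GCERAd, 1.49% in TRACK and 1.65% in GCERAdT. With mitochondrially encoded genes left out of the total, the order of WT and GCERAdT was not settled in either kind. In kind A the share was 2.16 to 2.29% in WT and 2.17 and 2.465% in GCERAdT 1 and 2. In kind B it was 1.94% in WT 2 and 2.01 and 1.80% in GCERAdT 3 and 4. The ratio of large to small subunit counts was 1.34 to 1.41 in every kind A library and 1.18 to 1.31 in every kind B library, so it followed the kind.

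**Figure D2:**
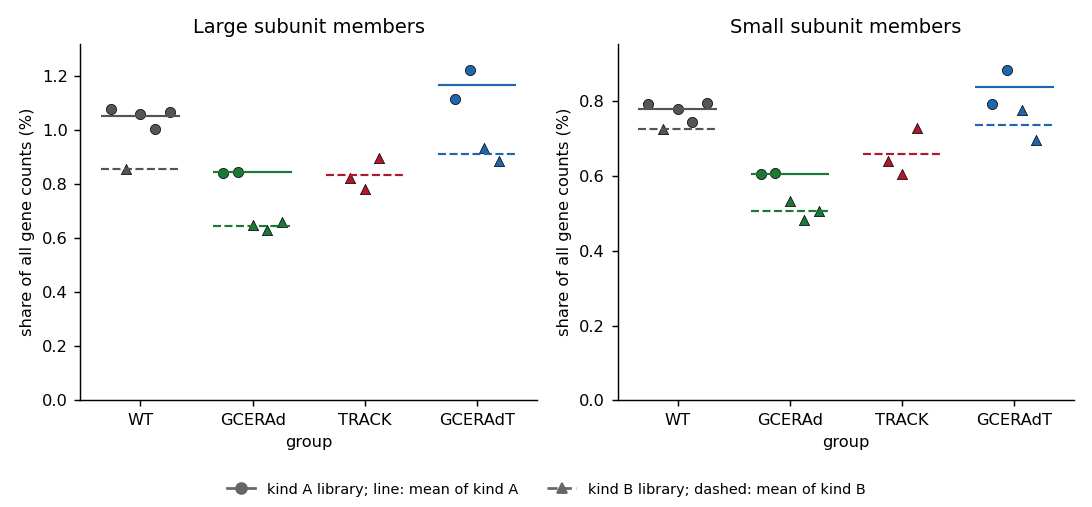
Share of all gene counts (%) on large subunit members (left) and small subunit members (right) in each library, by group; circles are kind A and triangles kind B, with a solid line at the mean of kind A and a dashed line at the mean of kind B. GCERAd libraries are the lowest of their kind in both panels, with large subunit means of 0.844% in kind A and 0.646% in kind B.

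The libraries labelled GCERAdT were compared with GCERAd, the Atf4 deletion alone, a comparison of mice of 1 sex whose kinds are spread over both groups. Ribosomal protein mRNAs of both subunits were higher in GCERAdT, and none that passed was lower. With group alone, 35 of 82 members tested rose (18 of 48 large, 17 of 34 small subunit; background: 9.39% of all 11816 genes tested) and 0 fell, with median log2 fold changes of 0.40 and 0.43 against 0.00 over all genes tested. With library kind in the fit, 66 rose (39 large and 27 small; background: 12.6%) and 0 fell, all 35 among them, with medians of 0.37 and 0.40. Same-numbered libraries of these groups deviated together and were also of the same kind, so a fit with a replicate block cannot tell pairing from kind. In that fit 71 members rose (background: 15.4%). In 67 members (38 large, 29 small) every GCERAdT library lay above every GCERAd library within each kind (background: 15% of genes tested). No member fell at an unadjusted p of 0.05 or below in either of the first fits.

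Rpl12, a protein of the stalk base where translation factors bind, had the largest change of the 82 members in both fits. It was at 253 and 293 CPM in GCERAdT 1 and 2 against 161 and 163 in GCERAd 1 and 2, and at 179 and 153 in GCERAdT 3 and 4 against 94.6, 84.7 and 96.9 in GCERAd 3, 4 and 5. The groups did not overlap within a kind, but across kinds GCERAd 1 and 2 lay above GCERAdT 4. Its log2 fold change was 0.86 ± 0.25 (SE, adjusted p = 0.0347) with group alone and 0.79 ± 0.08 (adjusted p = 0.000142) with library kind. For Rps24, a small subunit protein mutated in some patients with Diamond-Blackfan anaemia, the change was 0.69 ± 0.11 (adjusted p = 0.00145) with kind and 0.76 ± 0.31 (adjusted p = 0.116) without. For Rpl3, a protein of the peptidyl transferase region, it was 0.55 ± 0.09 (adjusted p = 0.00164) with kind and 0.63 ± 0.20 (adjusted p = 0.053) without. For Rps12 it was 0.55 ± 0.07 (adjusted p = 0.000406) with kind and 0.62 ± 0.26 (adjusted p = 0.119) without. In all 4 the estimate moved little and the SE was much smaller with kind in the fit.

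Several members passed in both fits. Rps15, which binds at the head of the small subunit and had the highest level per length in WT (527 FPKM, which is CPM divided by the exon length of the gene in kilobases), was at 248, 254, 254, 252 and 259 CPM in GCERAd and at 315, 362, 354 and 328 CPM in GCERAdT. Every GCERAdT library was higher than every GCERAd library, and the log2 fold change was 0.41 ± 0.07 (adjusted p = 0.00355). Rpl38, which is needed for the translation of some Hox mRNAs, was at 74.4 to 85.0 CPM in GCERAd and 97.3 to 111 in GCERAdT (0.39 ± 0.08, adjusted p = 0.00612). Rps19, the gene most often mutated in Diamond-Blackfan anaemia, was at 166.5 to 199 CPM in GCERAd and 227 to 249.7 CPM in GCERAdT (0.36 ± 0.08, adjusted p = 0.0099). Rpl36a changed by 0.50 ± 0.11 (adjusted p = 0.00972) and Rpl4 by 0.38 ± 0.11 (adjusted p = 0.032). Rps3, which also has a role in DNA repair, changed by 0.42 ± 0.12 (adjusted p = 0.0393).

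The protein partners of 5S rRNA passed with kind in the fit and did not pass without it. Rpl5 and Rpl11 join 5S rRNA before it enters the large subunit and bind MDM2 when ribosome assembly fails. Rpl5 was at 452 and 538 CPM in GCERAdT 1 and 2 against 366 and 359 in GCERAd 1 and 2, and at 197 and 149 in GCERAdT 3 and 4 against 131, 120 and 125 in GCERAd 3 to 5. Its log2 fold change was 0.44 ± 0.09 (adjusted p = 0.00778) with kind and 0.59 ± 0.47 (adjusted p = 0.426) without. Rpl11 changed by 0.31 ± 0.08 (adjusted p = 0.0192) with kind and 0.41 ± 0.33 (adjusted p = 0.426) without. Of the other members with known roles, Rps6, the substrate of the S6 kinases, changed by 0.38 ± 0.06 (adjusted p = 0.00176) with kind, Rps27a, which is made as a fusion with ubiquitin, by 0.50 ± 0.13 (adjusted p = 0.021), and Rpl10, among the last proteins to join the large subunit, by 0.31 ± 0.08 (adjusted p = 0.0196). Rps14 (0.41 ± 0.14, adjusted p = 0.0538), Rps27 (0.34 ± 0.13, adjusted p = 0.0881) and Rpl41 (0.31 ± 0.11, adjusted p = 0.0686) did not pass with kind in the fit.

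Single libraries changed how many members passed with group alone. Without GCERAdT 2, the library with the highest share of members, 17 rose (background: 6.05%), and without GCERAd 3, 20 rose (7.01%). With the possible repeat libraries summed 15 rose (background: 5.2%). With kind B libraries alone, 2 against 3, 2 rose (background: 2.03%), while with kind A alone, 2 against 2, 53 rose (14.1%).

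**Figure D3:**
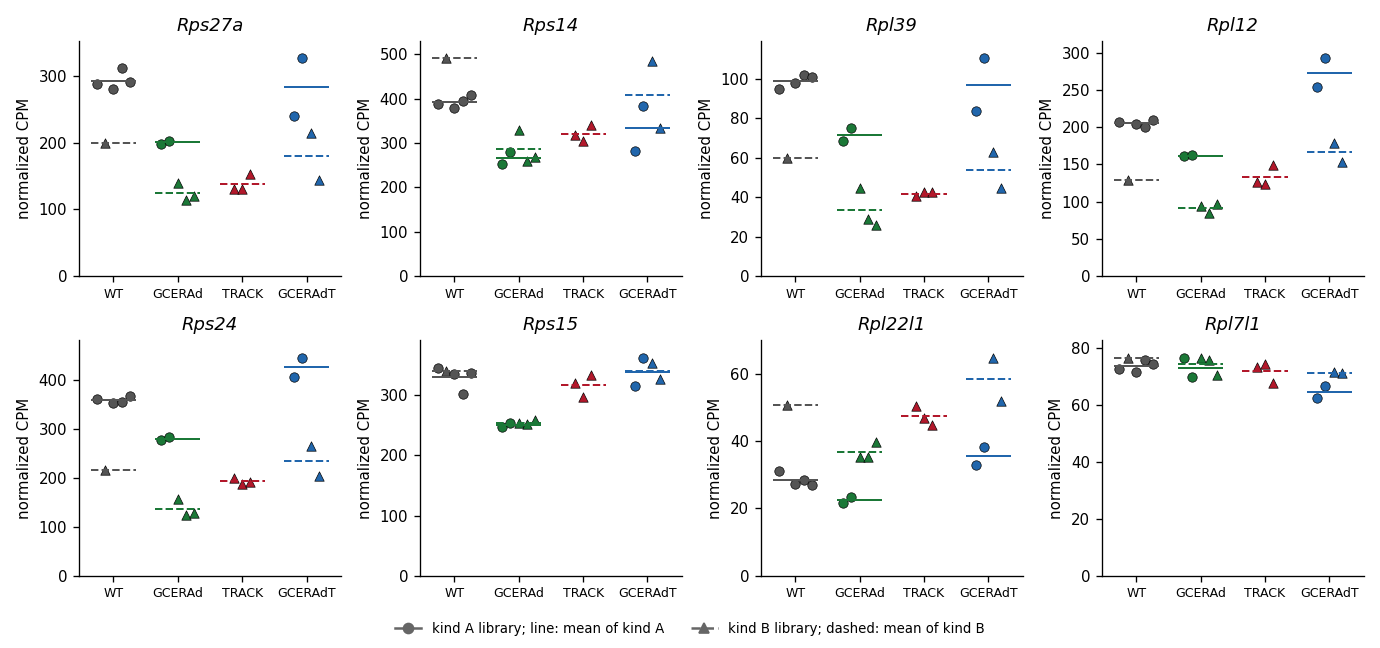
Normalized CPM of 8 members in each of the 17 libraries by group; circles and solid mean lines are kind A, triangles and dashed mean lines kind B, and every vertical axis starts at 0. Rps15 in GCERAd stays at 248 to 259 CPM in both kinds and below all other libraries, Rpl12 and Rps24 separate by kind as well as by group, and Rpl7l1 lies between 62.7 and 76.7 CPM in all libraries.

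Deletion of Atf4 alone was compared with WT, where sex differs with the genotype. The members tested moved down together in GCERAd. With group alone 46 of 81 fell (28 of 47 large, 18 of 34 small subunit; background: 13.5% of all 11581 genes tested) and 0 rose. With kind in the fit 67 fell (38 large, 29 small; background: 14.8%), all 46 among them, with medians of -0.31 in the large and -0.35 in the small subunit. In 69 members (39 large, 30 small) every GCERAd library lay below every WT library within each kind (background: 17.4%), where WT 2 was the only WT library of kind B. With kind B libraries alone 0 members fell in the edgeR test of 3 against 1 (background: 0.44%).

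Rps15 was at 345, 340, 335, 302 and 338 CPM in WT, above all 5 GCERAd libraries at 248 to 259 CPM (log2 fold change -0.38 ± 0.06, adjusted p = 0.000747). Rpl37a was at 160.1 to 189 CPM in WT and 97.3 to 126 in GCERAd (-0.63 ± 0.08, adjusted p = 0.000193), and Rpl36a at 106.5 to 119 and 68.8 to 82.9 (-0.52 ± 0.07, adjusted p = 0.00024). In these genes, too, the groups did not overlap across kinds. Rps14, one of the proteins around the decoding platform, was at 389, 492, 380, 396 and 409 CPM in WT and at 253, 280.5, 330.5, 261 and 268 CPM in GCERAd (-0.56 ± 0.10, adjusted p = 0.00162). Rps27a fell by 0.81 ± 0.18 (log2, adjusted p = 0.00658), Rpl39 by 0.89 ± 0.28 (adjusted p = 0.0366), Rps27 by 0.51 ± 0.10 (adjusted p = 0.0034) and Rpl41, the shortest ribosomal protein, by 0.60 ± 0.15 (adjusted p = 0.0131).

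Both contrasts share the GCERAd libraries, so the values of members named above are set side by side here and nothing is read from their opposite signs. With kind in the fit, Rpl12 changed by -0.38 ± 0.06 (adjusted p = 0.00101), Rps24 by -0.46 ± 0.09 (adjusted p = 0.00296), Rpl3 by -0.28 ± 0.07 (adjusted p = 0.015) and Rps12 by -0.30 ± 0.07 (adjusted p = 0.00628) in GCERAd against WT. Rpl5 changed by -0.28 ± 0.06 (adjusted p = 0.00632), Rpl11 by -0.39 ± 0.07 (adjusted p = 0.00138), Rps29 by -0.49 ± 0.07 (adjusted p = 0.000638) and Rps6 by -0.27 ± 0.06 (adjusted p = 0.0103). Rpl4, which lines part of the exit tunnel, was at 558 to 672 CPM in WT and at 504 to 659 CPM in GCERAd and did not pass (-0.16 ± 0.08, adjusted p = 0.137).

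TRACK against WT cannot be read apart from library kind, since all 3 TRACK libraries were of kind B and 4 of 5 WT libraries of kind A. With group alone 42 of 81 members fell (25 large, 17 small; background: 22.6% of all 11967 genes tested) and 7 rose (background: 23%), with medians of -0.31 and -0.29. With kind in the fit, which then rests on WT 2 alone, 12 fell (6 large, 6 small; background: 10.8%) and 1, Rpl3l, rose (background: 12.4%), with medians of -0.08 and -0.12. Rpl3l, which is among the 7 as well, averaged 0.49 FPKM in WT and passed the minimum only through TRACK, so it is given as a value and not as a result. In 37 members all TRACK libraries lay below WT 2, the WT library of the same kind (background: 38.7%), a share near that of all genes. The largest differences with group alone, Rps29 (-1.72 ± 0.32, adjusted p = 0.00182), Rpl5 (-1.34 ± 0.27, adjusted p = 0.00302), Rpl31 (-1.32 ± 0.24, adjusted p = 0.00161), Rps28 (-1.15 ± 0.25, adjusted p = 0.00462) and Rpl11 (-1.14 ± 0.19, adjusted p = 0.000878), are among the members that differ most between kinds, and with kind they became -0.37, -0.18, -0.33, -0.11 and -0.42.

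The 12 members that fell with kind in the fit were Rpl11, Rpl15, Rpl26, Rpl31, Rpl36a, Rpl39, Rps7, Rps14, Rps15a, Rps21, Rps27 and Rps27a, of which some are named only for this count, after their values were seen. These 12 of 81 are a share near that of all genes tested (background: 10.8%), in a fit whose kind term rests on WT 2 alone. Rps27 was at 203, 206 and 235 CPM in TRACK against 336 CPM in WT 2 and 244 to 276 CPM in the other WT libraries, with a change of -0.65 ± 0.11 (adjusted p = 0.00459) with kind and -0.38 ± 0.10 (adjusted p = 0.0145) without. Rps14 was at 317, 305 and 342 CPM in TRACK against 492 CPM in WT 2 and 380 to 409 CPM in the others (-0.61 ± 0.09 with kind, adjusted p = 0.00267, and -0.36 ± 0.09 without, adjusted p = 0.0105). Every TRACK library was below every WT library for both genes. Rps27a (-0.53 ± 0.11, adjusted p = 0.0121) and Rpl39 (-0.52 ± 0.08, adjusted p = 0.00374) also fell with kind in the fit. Rps15, by contrast, was at 320, 298 and 333 CPM in TRACK and overlapped the WT range of 302 to 345 CPM (-0.07 ± 0.07, adjusted p = 0.475). Rpl4 rose with group alone (0.37 ± 0.07, adjusted p = 0.00257; 756 to 800 CPM in TRACK) and not with kind (0.22 ± 0.10, adjusted p = 0.126).

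Without single libraries the count of members that rose with group alone was 3 (TRACK 1 left out; background: 18%), 4 (TRACK 3; 21.4%) or 11 (WT 2; 25.6%), and the count that fell was 27 without TRACK 2 (background: 16.7%).

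Deletion of Atf4 in the tumour model was compared in GCERAdT against TRACK, where both groups were of 1 sex and the libraries labelled GCERAdT did not hold fewer Atf4 counts. No member passed the test in either direction with group alone (background: 2.81% of all 11928 genes tested were higher) or with kind (background: 1.4%). At an unadjusted p of 0.05 or below 37 of 81 members were higher and 0 lower with group alone (background: 13.1% of genes tested were higher), and 11 were higher with kind (background: 9.73%). DESeq2 called 16 higher (background: 6.06%), and without GCERAdT 4, 25 were called higher by edgeR (background: 5.89%). The medians were 0.30 in the large and 0.22 in the small subunit with group alone and 0.12 and 0.15 with kind. In 24 members both GCERAdT libraries of kind B lay above all TRACK libraries (background: 18.1%). Rps27a was at 215 and 144 CPM in GCERAdT 3 and 4 against 129.7, 131 and 153 CPM in TRACK, so these overlapped, and its change was 0.39 ± 0.19 with kind (adjusted p = 0.292). Rps15 (0.11 ± 0.09, adjusted p = 0.481) was at 315 to 362 CPM in GCERAdT and 298 to 333 CPM in TRACK, and the groups overlapped.

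The plot of fitted changes sets the 4 comparisons side by side with and without library kind.

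**Figure D4:**
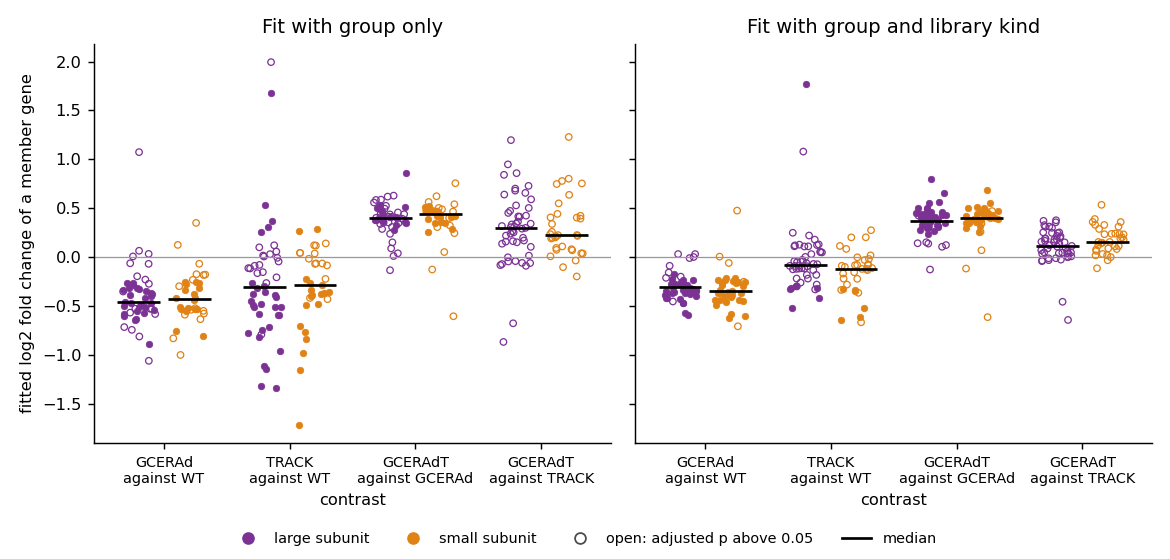
Fitted log2 fold change of each member tested in 4 contrasts, from the fit with group alone (left) and with group and library kind (right); purple is the large and orange the small subunit, filled points have an adjusted p of at most 0.05, and black lines are medians. The wide spread of TRACK against WT on the left narrows on the right, while GCERAdT against GCERAd keeps medians of 0.37 and 0.40.

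The change in GCERAdT against GCERAd was set against that in TRACK against WT as a difference of contrasts over all 17 libraries, (GCERAdT minus GCERAd) minus (TRACK minus WT), which is the same number as (GCERAdT minus TRACK) minus (GCERAd minus WT). Groups follow the labels, and the libraries labelled GCERAdT did not hold fewer Atf4 counts (80.6 to 104 CPM) than TRACK (77.6 to 93.4 CPM). Of 82 members 57 were higher (33 large, 24 small; background: 12.3% of all 12208 genes tested) and 1, Rpl3l, was lower, with medians of 0.76 and 0.72. Rpl3l, at 0.49 FPKM in WT, reached the minimum only through other groups and is given as a value, not as a result. With kind in the fit 61 were higher (background: 10.7%) and 0 lower, with medians of 0.44 and 0.49. The members of the largest differences that passed with kind were Rps27a (0.97 ± 0.18, adjusted p = 0.00151), Rps14 (0.97 ± 0.18, adjusted p = 0.00169), Rpl39 (0.94 ± 0.23, adjusted p = 0.00833) and Rps27 (0.94 ± 0.18, adjusted p = 0.0021). For Rps29 the difference was 2.23 ± 0.70 (adjusted p = 0.0284) with group alone and 0.70 ± 0.13 (adjusted p = 0.00132) with kind, and for Rpl5 it was 1.95 ± 0.63 (adjusted p = 0.0322) and 0.54 ± 0.14 (adjusted p = 0.00928). Sex differs between WT and the other groups in this test as well. Rpl3l (-1.65 ± 0.54, adjusted p = 0.0343) did not pass with kind (-1.29 ± 0.61, adjusted p = 0.142), and with kind B libraries alone 3 members passed (background: 1.34%).

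The paralogs did not all move with the canonical genes. Rpl22l1, the paralog that is known to rise when Rpl22 is lost, was at 33.1 and 38.4 CPM in GCERAdT 1 and 2 against 21.8 and 23.4 in GCERAd 1 and 2, and at 64.8 and 52.1 in GCERAdT 3 and 4 against 35.3, 35.4 and 39.7 in GCERAd 3 to 5. Both paralogs rose together, Rpl22l1 by 0.65 ± 0.09 (adjusted p = 0.000722) and Rpl22 by 0.43 ± 0.10 (adjusted p = 0.0108) with kind in the fit, and both fell in GCERAd against WT with kind (-0.37 ± 0.07, adjusted p = 0.0029, and -0.39 ± 0.05, adjusted p = 0.000374). Without kind Rpl22l1 passed in TRACK against WT alone among the 5 contrasts (0.53 ± 0.19, adjusted p = 0.0433), where the value with kind was -0.09; the direction in GCERAd against WT without kind depends on the libraries used.

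Other paralogs did not pass in GCERAdT against GCERAd. Rpl7l1 was at 69.8 to 76.7 CPM in WT and GCERAd and 62.7 to 74.7 CPM in TRACK and GCERAdT (GCERAdT against GCERAd -0.14 ± 0.07, adjusted p = 0.234). Rpl36al, which encodes nearly the same protein as Rpl36a, was at 58.1 to 69.0 CPM in WT, 59.4 to 72.6 in GCERAd, 70.4 to 77.4 in TRACK and 62.7 to 76.7 in GCERAdT (GCERAdT against GCERAd 0.09 ± 0.09, adjusted p = 0.564). It rose in TRACK against WT with group alone (0.25 ± 0.07, adjusted p = 0.0185) and not with kind (0.12 ± 0.10, adjusted p = 0.383). Rps27l, a p53 target, was at 88.1 to 124 CPM in WT, 93.6 to 130 in GCERAd, 102 to 109 in TRACK and 85.5 to 149 in GCERAdT, with the highest value of WT, GCERAd and GCERAdT in a kind B library. Rps19bp1, which is no ribosomal protein, was at 8.14 to 13.9 CPM over all libraries. Rpl13a, itself a protein of the large subunit, was at only 9.42 to 14.6 CPM. Of its windows of 51 bases 23.8% are found in other genes, 21.6% in Gm45713 alone, and the part of these copies in its level was not tested. Rpl24, a protein at the interface of the subunits, was at 0.21 to 0.60 CPM in kind A and 2.49 to 3.68 CPM in kind B, and 51.7% of its windows of 51 bases are found in other genes, 43.8% in Gm28037 alone; the part of these copies in its level was not tested.

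Rpl3l, the muscle paralog of Rpl3, was low everywhere: 0.63 to 1.17 CPM in WT, 0.40 to 2.17 in GCERAd, 2.11 to 2.86 in TRACK and at most 1.92 in GCERAdT. Its log2 fold change in TRACK against WT was positive (1.67 ± 0.31, adjusted p = 0.0018, and 1.77 ± 0.52, adjusted p = 0.0388, with kind), but in that contrast it passed the minimum level only through TRACK, as did Rpl24 (1.99 ± 0.76, adjusted p = 0.0528). Summed markers of skeletal muscle (3 genes) were at 0.0164 to 0.46 CPM in TRACK and at 3.45 to 10.4 CPM in WT.

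Levels per length covered a wide range. After Rps15 the highest in WT were Rpl41 (398 FPKM), Rpl36 (368), Rps3a1 (314) and Rps29 (311). The lowest were Rpl10l and Rpl36-ps4, at 0 counts in every library, and Rpl39l, Rpl9-ps1 and Rps18-ps6, at most 0.126 FPKM in any group. Rpl10l and Rpl39l are known as testis paralogs. With Rpl36a-ps1 (up to 0.259 FPKM) and Rpl10-ps3 (up to 0.566 FPKM) these are the 7 members left out of every test by the minimum of 1 FPKM, and Rpl3l (GCERAd against WT) and Rps23rg1 (TRACK against WT, and GCERAdT against TRACK) were left out of some.

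Reads of 51 bases, the length given in the study's methods, cannot always be placed on 1 copy. In the GENCODE M21 transcripts, 84 of 89 members had at least 1 window of 51 bases that another gene also holds, on either strand, and the median share of such windows was 22.6%. It was 91% for Rps27rt, with Rps27, 89% for Rpl9-ps6, with Rpl9, and 96.1% for Rpl10-ps3, with Rpl10, so the values of these copies are uncertain. The 33 tested members with at least 25% of shared windows had a median size of the kind difference of 0.424 (log2), against 0.248 in the other 49. Their medians in GCERAdT against GCERAd with kind were close, at 0.37 and 0.40, with 28 of 33 and 38 of 49 called higher (background: 12.6% of genes tested).

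The counts of members called are given with and without a tract at the annotated start, and the difference between these sets was not tested. In GCERAdT against GCERAd with kind in the fit, 23 of 30 members with a tract rose, at a median of 0.38. Of those without, 26 of 32 rose, at a median of 0.36 (background: 12.6% of genes tested). In GCERAd against WT with kind, 25 of 30 with a tract fell (median -0.35) and 24 of 31 without fell (median -0.29; background: 14.8%). Rpl5 and Rps12 rose without a tract within 5 bases of the annotated start. Rpl12, Rps24 and Rpl38 rose with one, as the sequences above show. In Rps12 the printed letters hold a C and a run of pyrimidines further after the start, outside that distance.

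A list of 7 holds ribosomal proteins outside the name rule. Among them are the stalk proteins Rplp0, Rplp1 and Rplp2, the small subunit proteins Rpsa and Rack1, and Fau, which is made as a fusion with a ubiquitin-like protein. With kind in the fit 6 of 7 rose in GCERAdT against GCERAd and 5 of 7 fell in GCERAd against WT (background: 12.6% of genes tested and 14.8%). Rplp1 changed by 0.55 ± 0.12 (adjusted p = 0.00766) and -0.49 ± 0.08 (adjusted p = 0.000853), and Fau by 0.45 ± 0.07 (adjusted p = 0.00202) and -0.35 ± 0.07 (adjusted p = 0.00297).

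Ribosomal proteins of the mitochondrion are encoded by nuclear genes and form a separate ribosome. With kind in the fit 2 of 77 tested rose and 14 fell in GCERAdT against GCERAd (median -0.12; background: 12.6% of genes tested rose and 13.3% fell). In GCERAd against WT 6 rose and 7 fell (median -0.01; background: 15.1% and 14.8%), and in TRACK against WT 1 rose and 27 fell (median -0.28; background: 12.4% and 10.8%). Of 18 translation factors and similar genes whose mRNAs carry a TOP tract, 8 rose and 1 fell in GCERAdT against GCERAd with kind, at a median of 0.27 (background: 12.6% and 13.3%). Among them Npm1, a nucleolar chaperone, rose by 0.56 ± 0.11 (adjusted p = 0.00632), the elongation factor subunit Eef1b2 by 0.52 ± 0.09 (adjusted p = 0.00215) and Hnrnpa1 by 0.41 ± 0.06 (adjusted p = 0.00106), while Eef2 had a value of 0.31 ± 0.15 (adjusted p = 0.165). In GCERAd against WT 5 of the 18 fell and 1 rose (background: 14.8% and 15.1%). Of 33 genes of ribosome assembly and rRNA transcription tested, 5 rose and 2 fell in GCERAdT against GCERAd (median 0.05; background: 12.6% and 13.3%), and of 14 genes of growth signalling to the ribosome, such as Mtor and Larp1, 2 rose and 3 fell (median -0.10; the same background).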

How the data were processed

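Paired-end 51-base reads of stranded mRNA libraries were trimmed with cutadapt, aligned to GRCm38 with STAR and counted with HTSeq by the authors, per the labels and the study's methods; bcl2fastq 2.20 is listed too. The study's supplement lists base yields that differ between sets of libraries at similar cluster counts. The read length may therefore not be 51 bases in all of them. The deposited table holds raw counts per gene, without normalization. The annotation release, the strand setting and the handling of reads with several matches are not given in the sources used here, so near-identical or overlapping genes are uncertain.

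Counts were scaled with TMM and tested with edgeR 4.0.16 (quasi-likelihood test, limma 3.58.1, R 4.3.3) on genes whose FPKM averaged 1 or more in a compared group, computed with merged exon lengths of GENCODE M21 (48435 genes had a length and 360 had none). P-values were adjusted by Benjamini-Hochberg over all genes tested, and genes were called at an adjusted p of at most 0.05. Standard errors were the log2 fold change over the square root of F. CPM are normalized with factors over all 17 libraries. In all, 5 contrasts were fitted. P-values measure the spread between libraries. Library kind was set by whether processed pseudogenes other than copies of ribosomal protein genes held more than 0.0436% of counts, the middle of the widest gap between libraries. Same-numbered GCERAdT and GCERAd libraries deviated together from their group means (r of 0.41, 0.541, 0.518 and 0.381), so a replicate block was fitted as well. Numbers 1 and 2 are kind A and 3 and 4 kind B in both groups, so this cannot tell a pairing of mice from kind.

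The members, lists and tests were chosen with earlier results of these data known. Named are the 5 largest and 5 smallest changes of a contrast, members called against the majority, the 5 highest and 5 lowest levels in WT, members under the minimum, short lists and members with a known role; some results are not reported here. Alternatives were DESeq2 1.42.0, RLE scaling, TMM without members, other minimums, all 17 samples in 1 fit and the block. Further ones were library kind, a length trend, summed repeat libraries and each library left out. Chosen after seeing the data were fits of 1 kind and of GCERAd without libraries 1 to 3 or 4 and 5. So were those of all 17 samples with kind and with GCERAdT 2 and 3 summed. On simulated counts for GCERAdT against GCERAd (11816 genes), 84% of 100 genes changed by 1 log2 unit and 19% of 100 changed by 0.5 were recovered.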

Additional observations from a re-analysis of the deposited data

Results flagged for a closer look

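In groups of 4 or 5 libraries, 105 groups of values were tested for a library far from the others, and 21 were found, where chance alone gives about 1 in 20. Of these, 17 were in WT 2, the only WT library of kind B. Its ratio of large to small subunit counts was 1.18. Its CPM lay below the other WT libraries for Rpl11 (156), Rpl12 (128), Rpl3 (274), Rpl31 (92.2), Rpl39 (59.8), Rpl5 (167), Rps12 (118), Rps24 (216), Rps27a (199) and Rps29 (84.4), and above them for Rpl22 (211), Rpl22l1 (50.8), Rpl24 (2.87), Rps14 (492), Rps27l (124) and Rps3 (541). The other libraries far from their group were WT 4 for Rpl3l (1.17 CPM) and Rps15 (302 CPM), GCERAd 1 for Rpl3l (0.403 CPM) and GCERAd 3 for Rps27l (130 CPM).

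The contrast GCERAdT against GCERAd differed from TRACK against WT, by the test of the difference over all 17 libraries with group alone, for 57 members in the higher direction. The log2 differences of the members described were 1.56 for Rps27a, 0.78 for Rps14, 0.71 for Rps27, 1.75 for Rpl39, 1.95 for Rpl5, 1.38 for Rpl12, 2.23 for Rps29, 1.03 for Rpl3 and -1.65 for Rpl3l.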

How the results depend on the processing

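The counts in this section show how many members passed in each fit. The share of all genes tested is not given beside them unless it stands above. They are therefore no results about the members. In TRACK against WT, 26 members fell with all 17 samples in 1 fit, 12 with kind (background: 10.8%) and 8 with all 17 samples and kind. In each fit with kind 1 rose. The large and small subunit medians were -0.08 and -0.12 with kind and in kind B alone, and -0.03 and -0.06 with all 17 samples and kind. With kind, in kind B alone and with all 17 samples and kind, Rpl22l1 reversed to -0.09, -0.09 and -0.02, and Rpl3 to 0.11, 0.11 and 0.12. In GCERAdT against GCERAd, 66 rose with kind, 71 with all 17 samples and kind, 53 in kind A, 2 in kind B, 21 with every gene that had a count and 15 with repeat libraries summed, and 1 fell without GCERAd 4 and 5. In GCERAd against WT, 0 fell in kind B, and 1 rose with a length trend, in kind A and without GCERAd 4 and 5. The large median was -0.28 in kind A and the small median -0.57 without GCERAd 1, 2 and 3, where Rpl4 (0.11) and Rpl22l1 (0.2) reversed. Rpl22l1 was also 0.05 with WT 1 and 2, and GCERAd 2 and 3, summed. With 1 library left out it ranged from -0.17 to 0.14 (0.14 without WT 2, 0.04 without GCERAd 1 and 0.02 without GCERAd 2). In GCERAdT against TRACK, 16 rose with DESeq2, 12 with every gene, 1 with all 17 samples and 2 with kind added, and the large median was 0.12 with kind and 0.11 in both other fits of kind. In the difference of contrasts, 3 were higher in kind B, and 0 were lower with kind, in kind B, with either sum of libraries and without GCERAd 4 and 5. Its medians were 0.44 and 0.49 with kind and 0.41 and 0.52 in kind B. Without mitochondrially encoded genes the mean shares were 2.17% in WT, 1.49% in GCERAd, 1.69% in TRACK and 2.11% in GCERAdT.

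With the replicate block, 71 members rose in GCERAdT against GCERAd, where same-numbered samples were also of the same kind. In other contrasts with the block, 1 rose in TRACK against WT and 5 in GCERAdT against TRACK.

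With 1 library left out, 3 to 11 rose and 27 to 45 fell in TRACK against WT, and 17 to 34 rose in GCERAdT against GCERAd. In GCERAd against WT 0 to 1 rose and 34 to 59 fell, and 0 to 25 rose in GCERAdT against TRACK. In the difference of contrasts 43 to 59 were higher and 0 to 2 lower, with a small subunit median of 0.57 to 0.79. Apart from the effect of fewer samples, the causes were not tested.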
